A study of Mus musculus with 7 samples.

Results

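The interferon response genes described here are 40 mouse genes that cells switch on, or rely on, when interferon reaches them. They were chosen by symbol from a fixed list without MHC class I or immunoproteasome genes, and all 40 are among the 55487 genes of the deposited count table. RNA came from isolated pancreatic islets of 4 control mice and 3 mice with Traf6 KO, described in the series design as a deletion specific to beta cells; the sources used here give neither the Cre driver nor the animals' age. Mice of both genotypes had received a high-fat diet (60% fat) for 15 weeks, and their islets rested in medium for 24 hours before RNA was taken. Each library is taken as 1 animal, since each carries its own tag of a letter and a number. The labels used here do not say what the tag stands for. Islets also hold cells in which a beta-cell deletion leaves Traf6 in place.

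Interferons are secreted proteins that warn cells of viruses and other microbes. Type I interferons act through the receptor IFNAR1-IFNAR2 and the kinases TYK2 and JAK1, which activate a complex that includes STAT2 and IRF9 and binds a DNA motif called the interferon-stimulated response element (ISRE). Interferon gamma acts through IFNGR1-IFNGR2 with JAK1 and JAK2, and its targets often carry the GAS motif. Beta cells respond to both, and an interferon signature in islets is best known from autoimmune diabetes. TRAF6, an E3 ubiquitin ligase, relays signals of Toll-like and interleukin-1 receptors, some of which lead to interferon production.

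Promoters of many of the 40 genes carry the ISRE core, and a few are shown to let the motif be compared between the groups described below. The RefSeq window from 250 bases before to 50 bases after the start was at hand for 32 of the 40 genes (build GRCm38.p6). The ISRE core, GAAA, any 2 bases and GAAA again, searched on both strands, was found in 19 of these 32 genes (59.4%), against 3.44% of all 32851 such windows. The GAS core, TTCNNNGAA, which reads the same on both strands, was found in 10 of 32 (31.2%), against 8.3% of all windows. In 5 genes ISRE matches overlapped each other, and in Bst2 a match also overlapped a GAS match. Capitals mark the ISRE core, and each stretch ends before the start of transcription:
Ifit1: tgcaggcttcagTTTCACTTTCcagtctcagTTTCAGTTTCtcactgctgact
Ifit3: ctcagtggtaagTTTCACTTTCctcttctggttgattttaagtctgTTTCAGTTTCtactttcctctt
Isg15: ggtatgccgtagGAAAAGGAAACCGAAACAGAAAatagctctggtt
Oas1a: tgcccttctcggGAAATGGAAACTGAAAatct
Stat2: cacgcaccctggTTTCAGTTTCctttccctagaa
Bst2: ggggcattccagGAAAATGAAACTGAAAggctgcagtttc
Gbp7: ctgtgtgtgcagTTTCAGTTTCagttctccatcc
Igtp: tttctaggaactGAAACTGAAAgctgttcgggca
Irgm2: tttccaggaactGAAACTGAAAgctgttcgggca
Cxcl10: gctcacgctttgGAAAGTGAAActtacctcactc

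The stretches lie at chr19:34640773-34640825 (Ifit1, + strand), chr19:34583361-34583428 (Ifit3, +), chr4:156200863-156200908 (Isg15, -), chr5:120907526-120907557 (Oas1a, -), chr10:128270264-128270297 (Stat2, +), chr8:71537575-71537614 (Bst2, -), chr3:142530271-142530304 (Gbp7, +), chr11:58199510-58199543 (Igtp, +), chr11:58214901-58214934 (Irgm2, +) and chr5:92349081-92349114 (Cxcl10, -). Each is promoter sequence upstream of the RefSeq start. The Ifit genes lie side by side on chromosome 19, the Gbp genes on chromosome 3, and Igtp and Irgm2 on chromosome 11. The windows of Igtp and Irgm2 start 15421 bases apart and share an identical run of 61 bases, so these genes are not independent examples. All 7 members of the GBP and IRG group had an ISRE core, and 4 of the 7 also had a GAS core. In Ddx58, Eif2ak2 and Ifih1 the ISRE core lay only after the start or across it. A match is a description of the letters in the window and not evidence that a factor bound there.

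Library totals ran from 22104256 to 29917292 counts, and the 40 genes together had 4366 to 17224 counts in a library. Levels are in CPM, counts scaled to library size after TMM. Of the 40 genes, 18 overlap another annotated gene and 10 overlap a protein-coding one, among them Irf1, Irf3, Irf7, Irf9, Rtp4 and Cxcl10. Reads in the shared parts may be divided between such genes by the counting, and no strand setting is stated. The targeted gene, Traf6, was at 12.7 CPM in the library labelled control 4, at 17.9, 25.5 and 22.1 CPM in the other controls and at 14.8, 15.4 and 14.5 CPM in the 3 knockouts (log2 fold change, Traf6 KO over control, -0.40 ± 0.22 SE; adjusted p = 0.416 by edgeR). The library labelled control 4 thus had less Traf6 than any knockout. These counts cover the whole gene and all cells of the islets, so they cannot decide whether that label is right. A set of 22 acinar markers, genes of exocrine pancreas, took 18.3% of counts in control 1, 51.1% in Traf6 KO 1 and 39.1% in Traf6 KO 2, and 0.422% to 2.95% in the other 4 libraries (the exact 95% binomial intervals, from 18.328% to 18.3556% in control 1, cover counting error only). Macrophage and myeloid markers summed to 649 CPM in the library labelled control 4 and to 180 to 308 CPM elsewhere. Traf6 KO 3 had 421 CPM of Xist and no Y-linked counts, and the other 6 libraries had at most 0.389 CPM of Xist and 105 to 128 CPM of Y-linked genes, so sex and library 3 cannot be told apart within the knockouts.

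No interferon response gene differed between genotypes by enough, against the spread between mice, to pass the test. Of the 40 genes, all of which were tested, 0 passed edgeR's quasi-likelihood test (adjusted p under 0.05), and the background share of genes called in that test was 0% of 16203. At an unadjusted p under 0.05, 3 genes (Ifi35, Usp18 and Ifit3) had lower values in Traf6 KO and 0 had higher values, against 7.17% and 8.81% of all genes tested. A share of 3 in 40 lower genes is near that background. DESeq2's Wald test called 1 of the 40, Ifi35, among 4.34% of all genes, and limma voom with quality weights also called Ifi35 alone, among 6.46%. Without weights limma voom called 0.

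Fold changes leaned downward all the same. A log2 fold change below 0 was found in 31 of 40 genes, against 49.3% of all genes tested. The median was -0.22, against 0.01 over all genes. This lean depended on single mice: the median was -0.43 without Traf6 KO 3, -0.37 without control 1, -0.14 without the library labelled control 4, -0.10 without control 3 and -0.07 without Traf6 KO 2. It also changed sign, to 0.07 with 19 of 40 genes below 0, once the acinar marker level entered the fit as a covariate. Beta-cell marker sums were lower in each Traf6 KO library than in any control. Endothelial sums were too, but only narrowly, with 458 CPM for Traf6 KO 3 against 461 CPM for control 2. As list means of log2(CPM + 1) the endothelial markers overlapped, with Traf6 KO 3 at 5.09 above control 2 at 5.04. The beta-cell list means stayed apart, with 10.64 as the highest Traf6 KO value and 10.86 as the lowest control value. All 10 beta-cell markers had a log2 fold change below 0 (median -0.36), and their sum ran from 155956 to 190087 CPM in control and from 89688 to 116030 CPM in Traf6 KO. Of the 10 endothelial markers 9 were below 0, with sums of 461 to 551 CPM in control and 399 to 458 CPM in Traf6 KO. No marker of either list was at 0 in all libraries and none passed edgeR's test; their part in the lean of the 40 genes was not tested.

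**Figure D1:**
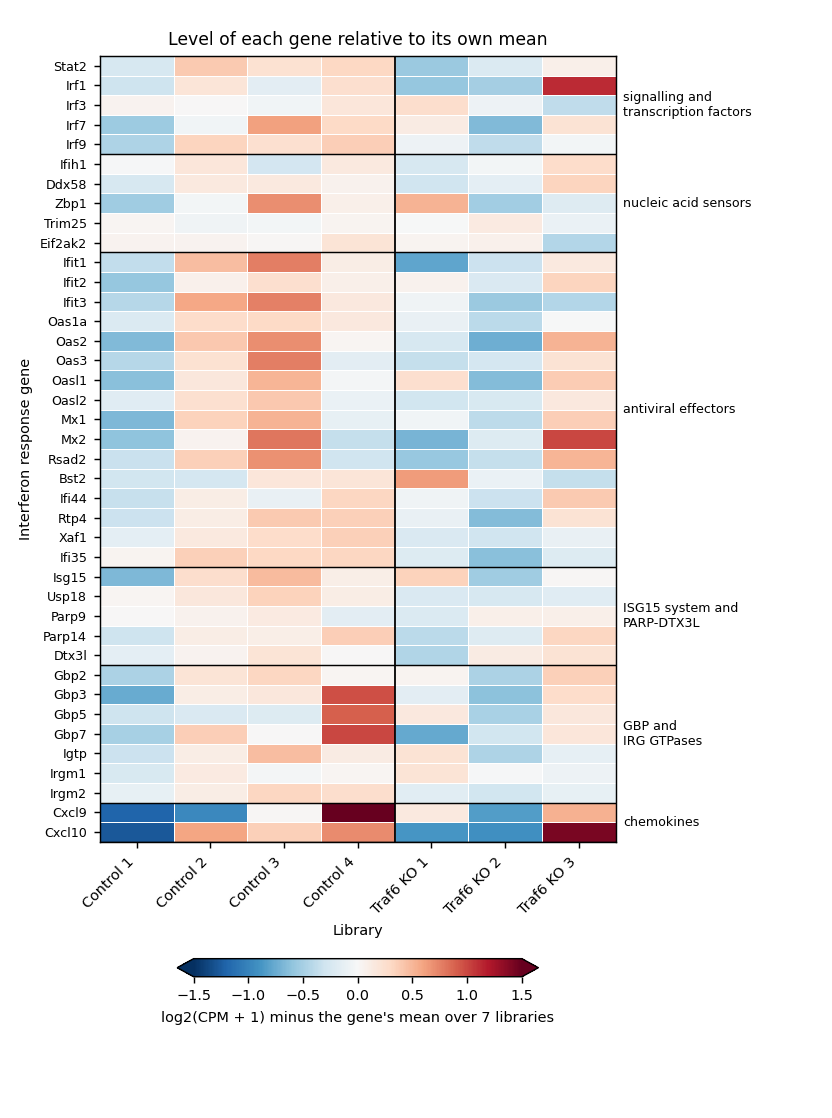
Heat map of the 40 interferon response genes (rows, by role) in the 7 libraries (columns); colour is log2(CPM + 1) minus the gene's own mean over the libraries, with red above and blue below that mean. Control 1, Traf6 KO 1 and Traf6 KO 2 are mostly blue, with 34, 27 and 36 of 40 genes below their mean.

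Libraries of the same genotype differed widely. Of the 40 genes, 34 lay below their own mean over the 7 libraries in control 1, as did 27 in Traf6 KO 1 and 36 in Traf6 KO 2. Controls 2 and 3 and the library labelled control 4 had 6, 7 and 7 such genes and Traf6 KO 3 had 14. The median relative level, a difference on the log2(CPM + 1) scale from each gene's mean, was -0.32 for control 1, -0.14 for Traf6 KO 1 and -0.32 for Traf6 KO 2. The other controls had 0.15, 0.28 and 0.15 and Traf6 KO 3 had 0.18, while the median over all genes tested stayed between -0.03 and 0.01 in every library. Low libraries were thus found in both genotypes, and they were the 3 in which acinar markers took 18.3% or more of the counts. The labels also give these 3 the tag letter Q with neighbouring numbers, while control 2 has a more distant Q number. Acinar level and neighbouring tags therefore cannot be told apart in these 3 libraries. In 18 of the 40 genes these 3 libraries all lay below the other 4, which 8.4% of all genes tested did, and in 0 of the 40 genes they all lay above, which 10.1% of all genes did. In bulk RNA, fewer cells of a type and less RNA per cell cannot be told apart.

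**Figure D2:**
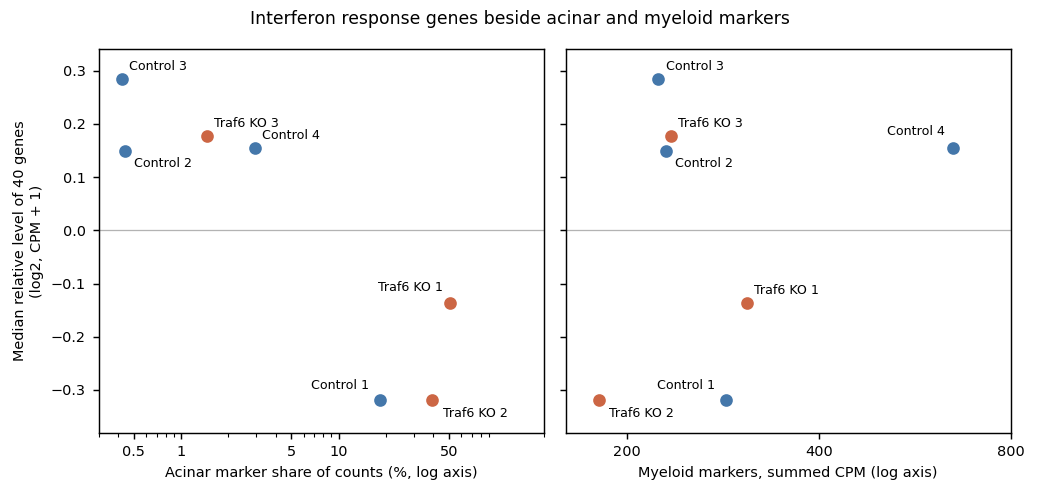
Median relative level of the 40 genes (y axis, log2) in each library against the acinar marker share of counts (left, log axis) and the summed CPM of 15 macrophage and myeloid markers (right, log axis); blue points are control and orange points Traf6 KO. The 3 libraries with an acinar share of 18.3% or more all lie below 0 and the other 4 above 0, while the highest myeloid sum, 649 CPM, goes with a median of 0.15.

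Among the signalling and transcription factors, Irf3 and Irf1 were the most abundant per length. Irf3, a factor that is present before infection and drives interferon transcription, stood at 47.9, 46.6, 44.6 and 52.5 CPM in the 4 controls and at 55.9, 43.8 and 35.2 CPM in Traf6 KO 1 to 3. The Traf6 KO values spanned the control range on both sides (log2 fold change -0.09 ± 0.16 SE; by edgeR, adjusted p = 0.799). Irf7, the factor that amplifies type I interferon, stood at 8.13, 11.8, 19.4 and 15.4 CPM in control and 13.5, 7.44 and 14.5 CPM in Traf6 KO. Its groups overlapped, and its log2 fold change was -0.21 ± 0.33 (SE).

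Irf1, an early factor of the interferon gamma response, set Traf6 KO 3 apart. It stood at 32.01, 45.8, 35.6 and 47.9 CPM in control, at 26.5 and 27.7 CPM in Traf6 KO 1 and 2 and at 88.4 CPM in Traf6 KO 3. Traf6 KO 3 was thus above every control and the other two Traf6 KO libraries were below every control. The log2 fold change was 0.24 ± 0.42 (SE; by edgeR, adjusted p = 0.808); leaving out Traf6 KO 3 gave -0.57. Stat2 and Irf9, partners in the complex that binds the ISRE, had log2 fold changes of -0.41 ± 0.21 and -0.33 ± 0.22 (SE) with overlapping groups. With the acinar level as a covariate these values were -0.09 and -0.06.

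The 5 nucleic acid sensors had a median log2 fold change of -0.04. Trim25, a ubiquitin ligase that assists the RNA sensor RIG-I, stood at 57.1, 53.5, 54.5 and 57.5 CPM in control and at 55.6, 61.5 and 52.3 CPM in Traf6 KO. Its log2 fold change was 0.02 ± 0.09 (SE), the smallest error of the 40 genes. Eif2ak2, the kinase PKR that stops translation on double-stranded RNA, stood at 17.7, 17.8, 17.2 and 19.8 CPM in control and 17.6, 17.95 and 12.3 CPM in Traf6 KO. Traf6 KO 3 alone lay below the controls' range, by more than their spread (1.13 CPM SD, n = 4). Eif2ak2 had a log2 fold change of -0.19 ± 0.15 (SE). Ifih1 and Ddx58, which encode the RNA sensors MDA5 and RIG-I, had log2 fold changes of -0.01 ± 0.17 and -0.04 ± 0.19 (SE). Zbp1, a sensor of Z-form nucleic acid, was scarce, with 10 to 88 counts per library.

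The antiviral effectors held the gene with the smallest p of the 40. Ifi35, an interferon-induced protein of the cytoplasm that partners with NMI, stood at 17.2, 21.7, 20.9 and 21.2 CPM in control and at 14.4, 10.5 and 14.3 CPM in Traf6 KO. The knockouts and controls did not overlap. Controls averaged 20.2 ± 2.03 CPM (SD, n = 4) and knockouts 13.1 ± 2.25 CPM (SD, n = 3). The log2 fold change, -0.63 ± 0.15 (SE), did not pass (edgeR adjusted p = 0.192). Groups without overlap in this direction were found in 2 of the 40 genes, Ifi35 and Usp18, against 8.68% of all genes tested, and in the upward direction in 0, against 5.58%. Leaving out 1 library at a time, genes without overlap numbered 8 lower without control 1 (background 10.3%), 2 without control 2 (10.4%), 2 without control 3 (10.1%) and 2 without the library labelled control 4 (11.7%). They numbered 4 without Traf6 KO 1 (14.5%), 3 without Traf6 KO 2 (10.6%) and 7 without Traf6 KO 3 (17.7%). None of the 40 genes was higher without overlap in these 7 settings, against backgrounds of 8.9%, 6.95%, 6.61%, 8.05%, 12.8%, 8.78% and 16.5% in the same order. Among mice with Q and R tags 7 genes were lower (21.7%) and 0 higher (19.5%). Other scaling and filters gave 2 lower with DESeq2 size factors (7.46%), 3 with no filter (6.3%) and 2 at a mean CPM of at least 1 (9.22%), and 0 higher in each (6.23%, 3.39% and 6.02%). The log2 fold change of Ifi35 was -0.51 ± 0.17 (SE) with the acinar covariate and between -0.71 and -0.49 with any 1 library left out. Control 1 was the lowest control for Ifi35, as it was in 35 of the 40 genes (28.5% of all genes tested). Ifi35 (chr11:101448407-101458698, + strand, GRCm38) overlaps an antisense gene, and its reads cannot be told apart from that gene's because no strand setting is stated.

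**Figure D3:**
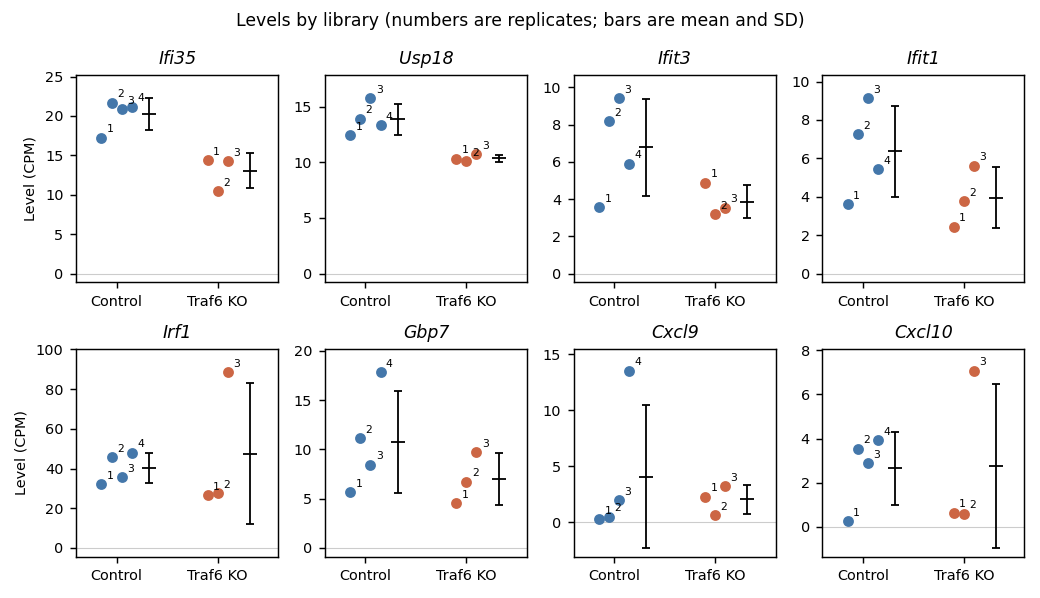
Levels in CPM of 8 interferon response genes in each library; points are libraries numbered by replicate, blue for control (n = 4) and orange for Traf6 KO (n = 3), and bars give the mean and SD. Ifi35 and Usp18 have no overlap between genotypes, while 1 library stands far from the rest in Irf1 (88.4 CPM in Traf6 KO 3) and Cxcl9 (13.5 CPM in the library labelled control 4).

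Ifit3 and Ifit1, which encode proteins of a complex that holds back viral RNA, carry paired ISRE cores in the stretches shown above. Ifit3 stood at 3.58, 8.20, 9.43 and 5.90 CPM in control and at 4.89, 3.18 and 3.53 CPM in Traf6 KO. Control 1 lay among the Traf6 KO libraries and the other 3 controls lay above them (log2 fold change -0.82 ± 0.35 SE; by edgeR, adjusted p = 0.309). Ifit1 stood at 3.61, 7.25, 9.14 and 5.44 CPM in control and at 2.45, 3.77 and 5.61 CPM in Traf6 KO, with Traf6 KO 3 inside the control range. Its log2 fold change was -0.67 ± 0.38 (SE), and -0.04 ± 0.25 (SE) with the acinar covariate. Under that covariate Ifit3 stood at -0.44 ± 0.43 (SE). Reads of Ifit3 can be shared with its near copy Ifit3b, which makes its level uncertain.

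Bst2, which encodes tetherin and holds budding virus at the cell surface, had the highest level per length of the 40 genes (14.3 CPM per kb of exon as a mean over the 7 libraries). It stood at 10.1, 10.3, 14.4 and 14.5 CPM in control and at 20.1, 11.7 and 9.63 CPM in Traf6 KO. Traf6 KO 1 was the highest library and Traf6 KO 3 the lowest, and the log2 fold change was 0.15 ± 0.27 (SE). Bst2 is also a marker of plasmacytoid dendritic cells. The 6 markers of that list, Bst2 among them, summed to 50.9 to 106 CPM in control and 50.2 to 72.9 CPM in Traf6 KO, and none was at 0 in all libraries; their part in the level of Bst2 was not tested.

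The remaining 12 effectors, Ifit2, the OAS and OAS-like genes (OAS enzymes make the small molecule that activates RNase L), the MX GTPases, Rsad2 (viperin), Ifi44, Rtp4 and the apoptosis adaptor Xaf1, had log2 fold changes from -0.84 (Oas3) to 0.23 (Mx2). None passed edgeR's test. The gene annotation lists Mx2 as a polymorphic pseudogene rather than a protein-coding gene. Several were scarce: Oas3 had 1 to 47 counts per library, Mx1 10 to 72 and Ifi44 17 to 77. Their groups overlapped, with SEs of 1.03, 0.62 and 0.39, and differences between them were not resolved. Mice of the same genotype also varied, with Mx1 at 10, 63, 72 and 28 counts in the controls. Rsad2 had 87 to 690 counts. It stood at 9.50, 15.9, 20.2 and 9.75 CPM in control and at 7.88, 9.27 and 17.7 CPM in Traf6 KO, so control 1 and the library labelled control 4 lay with Traf6 KO 1 and 2. Xaf1 had a log2 fold change of -0.52 ± 0.25 (SE) and overlapped between genotypes only through control 1 (2.45 CPM) and Traf6 KO 3 (2.53 CPM).

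Of the ISG15 system, Usp18, the protease that removes ISG15 from proteins and also blocks signalling at IFNAR2, was the other gene without overlap. It stood at 12.4, 13.9, 15.8 and 13.3 CPM in control and at 10.3, 10.1 and 10.7 CPM in Traf6 KO. The spread was 0.311 CPM among the knockouts (SD, n = 3) and 1.40 CPM among the controls (SD, n = 4). The log2 fold change was -0.42 ± 0.12 (SE) and did not pass (edgeR adjusted p = 0.213). Usp18 (chr6:121245906-121270917, + strand, GRCm38) also overlaps a lincRNA on the other strand. Its log2 fold change was between -0.45 and -0.35 with any 1 library left out and -0.32 ± 0.14 (SE) with the acinar covariate.

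Isg15 itself, a ubiquitin-like protein whose gene holds 3 overlapping ISRE cores in the stretch above, was scarce in all islets. It stood at 0.736, 2.34, 2.87 and 1.98 CPM in control and 2.54, 0.917 and 1.82 CPM in Traf6 KO (17 to 98 counts), with overlap and a log2 fold change of -0.19 ± 0.52 (SE). Parp9, which works with the ubiquitin ligase DTX3L in interferon signalling, stood at 14.9, 15.5, 16.3 and 13.1 CPM in control and 12.7, 15.9 and 15.8 CPM in Traf6 KO. Its log2 fold change was -0.02 ± 0.13 (SE), that of Dtx3l -0.04 ± 0.18 and that of Parp14, a related ADP-ribosyltransferase, -0.15 ± 0.22. Parp9 and Dtx3l overlap on opposite strands of chromosome 16, and without a stated strand setting their reads cannot be told apart.

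GBP and IRG genes encode GTPases that attack vacuoles holding microbes and are typical targets of interferon gamma. Igtp (Irgm3) stood at 5.75, 8.15, 10.6 and 8.16 CPM in control and at 8.78, 5.12 and 6.71 CPM in Traf6 KO, and its log2 fold change was -0.26 ± 0.26 (SE). Irgm1, which restrains the other IRG proteins on the cell's own membranes, stood at 10.8, 14.3, 12.6 and 13.3 CPM in control and 15.0, 12.8 and 12.3 CPM in Traf6 KO, with a log2 fold change of 0.06 ± 0.14 (SE). Irgm2 had -0.39 ± 0.17 (SE; by edgeR, adjusted p = 0.321); its highest Traf6 KO value, 6.23 CPM, was next to its lowest control value, 6.21 CPM. Igtp and Irgm2 overlap in the annotation, so reads in the shared part may be divided between them by the counting.

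Gbp7, Gbp3 and Gbp5, which encode proteins that coat microbes, were highest in the library labelled control 4. Gbp7 stood at 5.68, 11.2, 8.44 and 17.8 CPM in control and 4.53, 6.74 and 9.73 CPM in Traf6 KO. Gbp3 and Gbp5 stood at 9.29 and 4.13 CPM in the library labelled control 4, against ranges of 2.10 to 5.38 and 0.970 to 2.11 CPM in the other libraries. The log2 fold changes of Gbp7, Gbp3 and Gbp5 were -0.61 ± 0.41, -0.44 ± 0.49 and -0.24 ± 0.53 (SE), and -0.25, -0.02 and 0.37 without that library. Macrophage and myeloid markers had a log2 fold change below 0 in 13 of 15 genes, none of the 15 was at 0 in all 7 libraries, and their sum ran from 224 to 649 CPM in control and from 180 to 308 CPM in Traf6 KO. With the myeloid level as a covariate the 3 values were -0.32, -0.11 and 0.23.

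Cxcl9 and Cxcl10, chemokines that call T cells to interferon-exposed tissue, had 2 of the 3 largest SEs of the 40 genes, with Oas3. Cxcl9 stood at 0.280, 0.502, 1.96 and 13.5 CPM in control and at 2.26, 0.647 and 3.24 CPM in Traf6 KO. The library labelled control 4 held the only value above 3.24 CPM, and the log2 fold change of -0.97 ± 1.26 (SE) became 1.17 without it and 0.65 with the myeloid covariate. Cxcl10 stood at 0.245, 3.54, 2.87 and 3.92 CPM in control and at 0.634, 0.593 and 7.07 CPM in Traf6 KO. The 3 lowest values came from control 1, Traf6 KO 1 and Traf6 KO 2, and its highest, 218 counts, in Traf6 KO 3. The log2 fold change was 0.11 ± 1.03 (SE), and -2.11 without Traf6 KO 3. Lymphocyte markers summed to 457 CPM in Traf6 KO 3 and to 13.3 to 82.4 CPM in the other 6 libraries. Their list mean of log2(CPM + 1) set this library apart far less. It was highest in Traf6 KO 3, at 2.32, with 2.03 in control 3 and 2.01 in Traf6 KO 1. Of the 13 lymphocyte markers tested, 3 had a log2 fold change below 0 (median 0.73), and edgeR called none. The part of these markers in the levels of Cxcl10 and Irf1 was not tested.

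**Figure D4:**
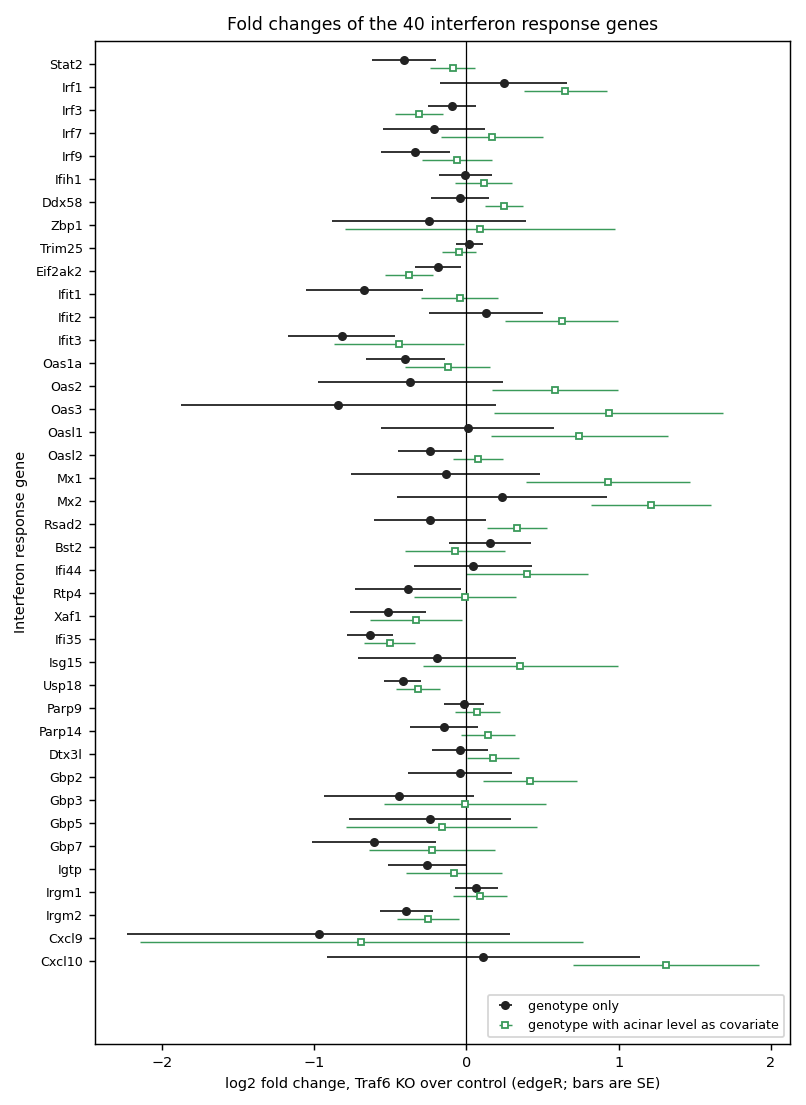
Log2 fold changes of the 40 genes, Traf6 KO over control, from edgeR with genotype only (black circles) and with the acinar marker level as a covariate (green squares); bars are SE. In the first fit 31 genes lie below 0 and in the second 19, and none passes in either.

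With the acinar level in the fit the median log2 fold change of the 40 genes went from -0.22 to 0.07, while that over all genes was -0.0024 with the covariate. Irf3, Eif2ak2, Bst2 and Trim25 moved the other way, from -0.09 to -0.31, from -0.19 to -0.38, from 0.15 to -0.08 and from 0.02 to -0.05. None of the 40 passed with it, and edgeR then called 0.0185% of all genes, all 3 of them higher. At an unadjusted p under 0.05, Ifi35 (-0.51 ± 0.17 SE) and Eif2ak2 (-0.38 ± 0.16) were lower and Mx2 (1.21 ± 0.40) and Irf1 (0.65 ± 0.27) higher under the covariate. These 2 lower and 2 higher genes of 40 compare with 6.87% and 8.76% of all genes in that fit. A single line for the acinar level rests on 7 libraries, of which both Traf6 KO 1 and 2 are acinar-rich, so genotype and acinar level are only partly separated. The acinar-rich libraries also have neighbouring tags, which the covariate cannot separate from acinar level. Without the 3 acinar-rich libraries, which leaves 3 controls and Traf6 KO 3 alone, edgeR called 0 of the 40 genes and 0.375% of all genes. Traf6 KO 3 then lay below all 3 controls in 16 genes and above them in 8, against 32.9% and 32% of all genes tested. Ifi35 and Usp18 were among those with lower values, at -0.58 and -0.43. Genotype and sex cannot be told apart in this setting, since Traf6 KO 3 alone had Xist at 421 CPM and no Y-linked counts.

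Fold changes were also read by ISRE core. In the 19 genes with the core the median log2 fold change was -0.24 and 16 were below 0. In the 13 genes with a window and no core the median was -0.10 and 8 were below 0. In the 8 genes without a window the median was -0.20 and 7 were below 0. The sets were not tested against each other, and the 40 genes were chosen with interferon targets in mind. Ifi35 had a GAS core and no ISRE core in its window.

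Interferon genes themselves were at the edge of detection. Ifnb1 had 1 count in Traf6 KO 3 and 0 in the other 6 libraries, and Ifna2, Ifna4, Ifnl2, Ifnl3, Ifnk and Ifne had 0 in all 7. A count of 0 allows up to 3 counts, which is 0.272 CPM in Traf6 KO 1, the library with the smallest effective size. Ifng had 1, 4, 7 and 1 counts in control and 0, 0 and 2 in Traf6 KO. A difference in interferon transcripts between genotypes was therefore not detectable at this depth.

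Of 91 other genes of the interferon pathway in the count table, 80 were tested and 0 passed edgeR's test in either direction. At an unadjusted p under 0.05 in that test, 3 were higher and 5 lower in Traf6 KO, against 8.81% and 7.17% of all genes tested. Groups without overlap were found upward in 3 and downward in 5 of the 80, against 5.58% and 8.68% of all genes. Their median log2 fold change was 0.01, with 40 on each side of 0. Of the receptor genes, Ifnar1 ran from 24.8 to 26.4 CPM in control and from 22.3 to 24.3 CPM in Traf6 KO (log2 fold change -0.12 ± 0.09 SE), and Ifnar2 from 17.2 to 20.1 and from 15.4 to 17.0 CPM (-0.16 ± 0.10). Neither receptor gene passed (edgeR adjusted p = 0.503 and 0.481), although their groups did not overlap. Ifnlr1, the receptor subunit for interferon lambda, was higher without overlap, from 0.989 to 1.31 CPM in control and from 1.45 to 2.08 CPM in Traf6 KO (0.59 ± 0.28 SE; by edgeR, adjusted p = 0.342). Il10rb, its partner subunit, overlapped (0.57 ± 0.31 SE). Ifngr1, Ifngr2 and Tyk2 overlapped between genotypes, at -0.13 ± 0.24, 0.30 ± 0.28 and -0.03 ± 0.14 (SE).

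The kinase genes Jak1 and Jak2 stood higher in every Traf6 KO library than in any control. Jak1 was 99.8, 109, 101 and 116 CPM in control and 129, 135 and 131 CPM in Traf6 KO, a log2 fold change of 0.31 ± 0.10 (SE; by edgeR, adjusted p = 0.230). Jak2 was 21.9 to 25.3 CPM in control and 28.0 to 30.5 CPM in Traf6 KO, at 0.31 ± 0.09 (SE; by edgeR, adjusted p = 0.215). Mavs, the mitochondrial adaptor of RIG-I and MDA5, was 10.7 to 16.4 CPM in control and 15.5 to 24.0 CPM in Traf6 KO, overlapping through control 1 and Traf6 KO 3, at 0.70 ± 0.20 (SE; by edgeR, adjusted p = 0.207). By the DESeq2 Wald test Jak1 and Mavs passed (adjusted p = 0.0215 and 0.0469), as they did by limma voom with quality weights (0.0453 and 0.0349). Of the 80 other pathway genes, the Wald test called 2 and quality weights 5, against 4.34% and 6.46% of all genes. Mavs also passed in edgeR without Traf6 KO 3, where edgeR called 4.24% of all genes and 0 of the 40 interferon response genes. With library number as a block edgeR called 0.037% of all genes and again 0 of the 40.

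Nmi, the binding partner of Ifi35, had -0.44 ± 0.16 (SE; by edgeR, adjusted p = 0.261), with 10.7 to 14.9 CPM in control and 8.24 to 10.9 CPM in Traf6 KO. Ube2l6, the conjugating enzyme of ISG15, stood at 9.71 to 12.2 CPM in control and 6.25 to 8.43 CPM in Traf6 KO without overlap (-0.52 ± 0.16 SE; by edgeR, adjusted p = 0.223). Ube2l6 and Parp10 passed by limma voom with quality weights (adjusted p = 0.0454 and 0.0383) and not by the DESeq2 Wald test (both 0.104). Parp10, Oas1c and Oas1g had log2 fold changes of -0.39 ± 0.12, -0.70 ± 0.24 and -1.01 ± 0.41 (SE) and did not pass in edgeR; reads of the Oas1 genes can be shared between their close copies.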

How the data were processed

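Total RNA was sequenced, per the labels; RNA selection and strand are not stated. The authors deposited raw, whole-number counts per gene, 1 column per library; the submitters' processing notes name STAR 2.6.1b, RSEM 1.3.1, FastQC and GRCm38 without roles, so counts may be rounded estimates. Coordinates and exon lengths came from GENCODE M21 (GRCm38), which held 55227 of 55487 identifiers. Genotype and columns were taken from the labels.

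Counts were fitted over all genes in edgeR 4.0.16 (R 4.3.3; TMM; quasi-likelihood F test; genotype only; filterByExpr with counts of at least 10 and totals of at least 15; Benjamini-Hochberg threshold 0.05). The SE of a fold change was derived from its F statistic. Every pair of libraries differed by more than sampling noise (lowest chi-square per gene 21.8). The code of the fit was run on simulated counts with a single dispersion and large changes only, in well-expressed genes. That simulation held no acinar-rich libraries and no small changes, so it does not show how well the fit performs on these data. Acinar and myeloid covariates are list means of log2(CPM + 1). DESeq2 1.42.0 and limma 3.58.1 served as alternatives.

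Members and lists were chosen with earlier results of these data known. Values in every library are given for members with an unadjusted p under 0.05 or no overlap, the 2 highest per length of each role, and Ifit1, Isg15, Irf7, Irf1 and Cxcl10; of other pathway genes, the 8 smallest p and a fixed set, of which 1 gene is not reported here. Stat2, Irf9, Ifih1, Ddx58, Zbp1, Rsad2, Xaf1, Oas3, Mx1, Mx2, Ifi44, Gbp3, Gbp5, Gbp7, Irgm2, Dtx3l, Parp14, Ifnlr1 and Il10rb were added after their values were seen. So were Gbp2 and Isg20. Lists were not tested as sets.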

Additional observations from a re-analysis of the deposited data

Results flagged for a closer look

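In a group of 4 controls, 1 library stood far from the rest in 7 of the 65 levels examined; chance marks about 1 in 20. In the library labelled control 4, Gbp5 (4.13 CPM), Cxcl9 (13.5 CPM) and the summed macrophage and myeloid markers (649 CPM) were far above the other controls. In control 1, Oas1c (3.01 CPM) was far below the other controls, and the summed stellate and fibroblast (204 CPM), ductal (1193 CPM) and acinar markers (192369 CPM) were far above them.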

How the results depend on the processing

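Of the 40 genes, the DESeq2 Wald test called 1 and voom with quality weights 1 (Ifi35 in both); no other setting run called any. Genes called over the whole table were 704 by the DESeq2 Wald test, 1046 with quality weights, 3 with the acinar covariate, 6 with the replicate block, 0 to 701 with 1 library left out (701 without Traf6 KO 3) and 67 without the 3 acinar-rich libraries, a setting chosen after seeing the data in which the lone Traf6 KO library is assumed to vary like the controls. Of the 80 other pathway genes, the Wald test called 2 (background 4.34%) and quality weights 5 (6.46%). Those 5 were Jak1, Mavs, Ube2l6, Parp10 and Isg20. With 1 library left out 0 to 1 were called (1 without Traf6 KO 3, Mavs, background 4.24%). The median log2 fold change of the 40 genes turned to 0.073 with the acinar covariate and ran from -0.43 to -0.07 with 1 library left out. Genes without overlap were 7 among Q- and R-tagged mice (background 21.7% lower), 2 to 8 with 1 library left out (8 without control 1, background 10.3%; 7 without Traf6 KO 3, 17.7%; 4 without Traf6 KO 1, 14.5%), and 24 without the acinar-rich libraries (16 lower, background 32.9%, and 8 higher, 32%); no such count was made for the Wald test, limma, covariates or block.

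Directions of single genes, none called, turned as follows; the cause was not tested. Parp9 turned to 0.0034 with DESeq2 size factors, 0.0088 by the Wald test, 0.0082 by voom, 0.0078 with quality weights, 0.071 with the acinar covariate and 0.063 without the acinar-rich libraries. Cxcl9 turned to 0.41 by voom, 0.65 with the myeloid covariate, 0.61 in Q- and R-tagged mice and 1.25 with the replicate block. Irf1 and Cxcl10 turned to -0.32 and -1.27 with quality weights and -0.48 and -1.86 in Q- and R-tagged mice, where Irf3 was 0.10, Eif2ak2 0.017 and Tyk2 0.085. Bst2 turned to -0.0071 by voom, -0.076 with the acinar covariate and -0.45 without the acinar-rich libraries, and Trim25 to -0.00096 with no filter, -0.051 with the acinar covariate and -0.087 without those libraries. The acinar covariate also turned Irf7 to 0.17, Isg15 to 0.35 and Ifngr2 to -0.21. Without the acinar-rich libraries Irgm1 was -0.14, Ifngr1 0.055 and Ifngr2 -0.32. Tyk2 was 0.14 with quality weights, 0.022 with the myeloid covariate and 0.057 with the replicate block; Ifngr1 was 0.033 with the myeloid covariate and 0.058 with the block.

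The labels do not pair library numbers 1 to 3 across genotypes. Deviations of same-numbered libraries correlated at 0.60, -0.18 and 0.45. Libraries of different number were not compared in this way, so these values cannot decide whether mice were paired. With 1 library left out, ranges that cross 0 were -0.57 to 0.53 (Irf1), -0.27 to 0.054 (Irf3), -0.40 to 0.045 (Irf7), -0.034 to 0.073 (Trim25), -0.20 to 0.36 (Bst2), -0.52 to 0.13 (Isg15), -0.073 to 0.086 (Parp9), -0.016 to 0.13 (Irgm1), -1.53 to 1.17 (Cxcl9), -2.11 to 0.57 (Cxcl10), -0.29 to 0.083 (Ifngr1), -0.0028 to 0.56 (Ifngr2) and -0.13 to 0.066 (Tyk2).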
